A study of Mus musculus with 4 samples.

Results

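Of the genes represented on the arrays, 36 known transcriptional targets of p53 were examined here, outside the cell cycle inhibitors, death receptors, Bcl2 family and p53 regulators that are usually read first. They were chosen by name, as all probes carrying 1 of the 36 gene symbols: 45 probes of 55681 that stood for 36499 gene names. The cells were mouse neural stem/progenitor cells (NSPCs) taken from embryos at embryonic day 13.5, of the Slc:ICR strain by their labels, and grown as neurospheres in serum-free medium with EGF and FGF-basic. Both genotypes shared these conditions: wild-type NSPCs and Trp53-/- NSPCs, the latter bred from a line obtained as heterozygous mice. Whether a culture held 1 embryo or several was not given. On each of 4 two-colour arrays, RNA of NSPCs treated with 20 μM PJ34, an inhibitor of poly(ADP-ribose) polymerases (PARPs), was labelled with Cy5 and RNA of untreated NSPCs of the same genotype with Cy3. Each genotype had 2 arrays from independently prepared RNA. The length of the treatment was not given for these arrays, and no dyes were swapped.

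The p53 protein is a transcription factor that is kept at low levels by Mdm2 and is stabilised and activated by DNA damage and other stress. It binds paired copies of a short palindromic element near its targets and raises their transcription. Besides cell cycle arrest and apoptosis, its targets serve nucleotide excision repair, RNA stability, redox defence, metabolism and secreted signals, and in neural progenitors p53 is known as a brake on self-renewal. PARPs are activated by DNA breaks, so that an inhibitor leaves breaks unrepaired for longer. The comparison of PJ34 with control in both genotypes addresses which of these targets responded to the inhibitor and whether they did so without p53. The comparison of the untreated channels addresses how far the same genes already differed between the genotypes.

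Well above background were 26081 to 27156 probes in the PJ34 channel and 21505 to 24540 in the control channel, with no saturated spots, and their number limits the precision. All 10 markers of neural stem/progenitor cells, among them Nes and Sox2, were well above background in every control channel, as were 7 of 10 neuronal markers, whereas the neuronal genes Neurod1 and Stmn2 were so in none. The Trp53 probe, at chr11:69404204-69404263 of mm9, gave untreated log2 intensities of 8.28 and 8.51 in wild-type and 7.56 and 7.82 in Trp53-/- NSPCs. The deleted part of the allele was not given, so this signal does not check the genotype labels. Trp53-/- replicate 2 stood apart from the other arrays in Y-linked transcripts: the log2 ratio of Eif2s3y as measured was 4.22 there and between −0.20 and 0.84 on the other arrays, and that of Ddx3y was 3.12 there, with a control channel not well above background for both. The PJ34 and control RNA of that array thus differed in these transcripts as well as in the treatment, and the calls that involve Trp53-/- NSPCs are given with and without the array.

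Promoter sequences of 31 of the 36 genes were found in the RefSeq table of GRCm38.p6, each running from 250 bases before to 50 bases after a listed transcription start. They were searched for the 10-base p53 decamer consensus, which is its own reverse complement, so that a search of either strand finds the same sites. At least 1 decamer lay in a window of 7 of the 31 genes (22.6%), compared with 9.55% of 27025 genes in the table. Counted by window, 8 of 47 windows of the p53 targets (17.0%) and 8.36% of 32851 windows held one. Xpc, Ddb2, Trp53inp1, Zmat3 and Thbs1 were not matched. The decamers are given in capitals with the flanking bases in lower case, because the response of their genes to PJ34 is described in the following paragraphs. A pair of decamers separated by 0 to 13 bases, the form of a complete response element, was found in none of the windows of these genes and in 0.074% of all genes. A match is a description of these letters only.
Aen, chr7:78895927-78895956 (+), first base of the decamer 11 bases into the transcript: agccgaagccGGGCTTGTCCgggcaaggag
Ei24, chr9:36797325-36797354 (-), 10 bases before the start: cgtgcggcccGGGCATGCCCagtgtgggcg
Polk, chr13:96519399-96519428 (-), 231 bases before the start: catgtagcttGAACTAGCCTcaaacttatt
Rap2b, chr3:61364530-61364556 (+), 34 bases into the transcript: gcgacgtactGGGCATGCTCggctggg
Rps27l, chr9:66946193-66946222 (+), 210 bases before the second of its listed starts: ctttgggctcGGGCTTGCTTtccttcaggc
Rps27l, chr9:66946296-66946325 (+), closer to the same start: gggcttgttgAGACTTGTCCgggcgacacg
Sesn1, chr10:41887256-41887285 (+), 173 bases before the start: cttggccttcAAGCTTGTTTttgctggcct
Wrap53, chr11:69580274-69580303 (-), 43 bases before the start, in the stretch it shares with the promoter of the neighbouring Trp53: taacaagtaaGGGCAAGTCCttccgtgggt

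In wild-type NSPCs most of these p53 targets rose with PJ34. Of the 36 genes, 34 passed the filter on dim probes, and 23 of the 34 were higher and 4 lower at a Storey q below 0.05, whereas 13.6% of all 20227 genes tested were called higher and 11.3% lower. The q-value estimates the share of false calls among genes called at that level. Only Trp53inp1, Gdf15 and Dcxr exceeded 2-fold at this q, the limit that 0.287% of all genes passed upwards and 0.213% downwards. The median log2 ratio of the 34 genes was 0.56, against 0.029 over all genes tested. Gene by gene, 27 of the 34 were above 0 on both wild-type arrays and 7 below 0 on both. The other 2 genes, Lif, the leukaemia inhibitory factor, and Thbs1, the secreted matrix protein thrombospondin 1, were not well above background in either channel of any array. Markers of neural cell types were read with the same test. In wild-type NSPCs 3 of 10 progenitor markers were called higher and 3 lower, and 3 of 10 neuronal markers higher and 0 lower. The wild-type astrocyte calls below were close to the shares of all genes. The summed intensity of the astrocyte markers was 32200 to 34600 in the control and 23100 to 30200 in the PJ34 channels of wild-type NSPCs, where 1 of 8 markers was called higher and 1 lower, and 37800 to 40500 against 38700 to 47400 in Trp53-/- NSPCs. For the oligodendrocyte markers the sum was 45700 to 52500 in control and 39200 to 43500 in PJ34 channels of Trp53-/- NSPCs, with 6 of 9 markers called lower, and 41600 to 43600 against 38400 to 53200 in the wild type, with 3 called lower. Their part in the response of the p53 targets was not tested.

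Without p53 few of the same genes changed. In Trp53-/- NSPCs the median log2 ratio of the 34 genes was −0.083, against 0.033 over all genes, and 11 were above 0 and 15 below 0 on both arrays. Plk2 and Xpc were higher and Psrc1, Gpx1 and Sesn1 lower at a q below 0.05, while 12.8% of all genes were called higher and 10.5% lower. By limma none of the 34 exceeded 2-fold at this q (0.089% of all genes did so upwards and 0.272% downwards). With an unadjusted p below 0.05 by limma there were 2 higher and 5 lower, again none over 2-fold. Of all 20227 genes, 6254 passed that unadjusted p in either direction. Without Trp53-/- replicate 2 the calls were Plk2, Psrc1 and Gpx1, and without Trp53-/- replicate 1 they were Psrc1 and Gpx1.

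**Figure D1:**
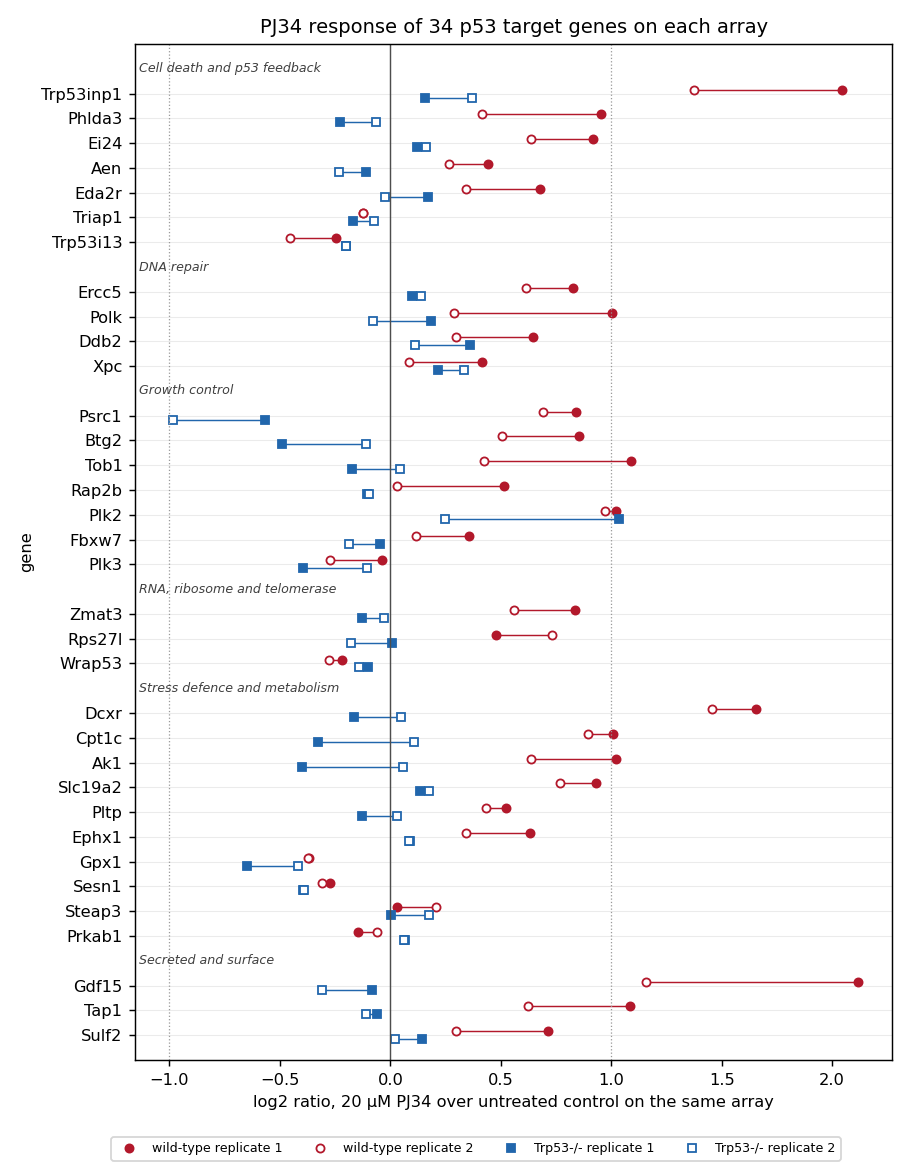
Log2 ratio of PJ34 over untreated control (x axis) for the 34 p53 targets that passed the filter, 1 row per gene and grouped by role. Red circles are the wild-type arrays and blue squares the Trp53-/- arrays, filled for replicate 1 and open for replicate 2. Dotted lines mark 2-fold. The red points lie to the right of the blue points without overlap for 25 genes, against 21.3% of all genes. For Gdf15, Tap1 and Eda2r the blue points were not well above background.

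The difference of the response between the genotypes was tested directly. Unequal labelling of a probe by Cy5 and Cy3 stays in the ratios of each genotype, as the dyes ran the same way throughout. It drops out of this contrast only as far as it was equal in both genotypes, whose arrays were scanned in different years, and this was not tested. The response was larger in wild-type NSPCs for 14 of the 34 genes at a q below 0.05, against 1.27% of all genes. It was smaller for none by limma, both at this q and at an unadjusted p below 0.05. At this q 0.47% of all genes were called in that direction. The unadjusted p was passed by 2911 of all 20227 genes in either direction. Past 2-fold were Gdf15, Dcxr, Psrc1, Trp53inp1 and Cpt1c, against 0.435% of all genes upwards and 0.0346% downwards. Gdf15 and Tap1 are among the 14 but passed the filter through the wild-type arrays alone, and the size of their difference is not a measured one. When both channels had to be well above background on all 4 arrays, 12 of 30 genes were called and 4 exceeded 2-fold. The median difference was 0.53 on the log2 scale, and −0.0067 over all genes. The log2 ratios of the genotypes did not overlap, with wild-type higher, for 25 genes, and with wild-type lower for 3, compared with 21.3% and 23.9% of all genes.

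The array that stood apart bears on the number of these calls but not on their direction. For Gdf15 and Tap1 the Trp53-/- signals were not well above background on any array. Their sizes in this paragraph, and a place over 2-fold, are thus not measured ones. Without Trp53-/- replicate 2, 7 genes were called, all of them among the 14: Ak1, Btg2, Cpt1c, Dcxr, Gdf15, Psrc1 and Trp53inp1, each over 2-fold. The differences of Ei24, Ercc5, Phlda3, Rps27l, Slc19a2, Tap1 and Zmat3 then lay between 0.60 and 0.92 on the log2 scale, with q between 0.0502 and 0.135. Without Trp53-/- replicate 1, 9 were called, of which 8 were among the 14 and the other was Plk2. Btg2, Cpt1c, Dcxr, Gdf15, Psrc1 and Trp53inp1 were called whichever of the 4 arrays was left out. With the log ratios of the scanner software, none of the 20227 genes was called by limma. All 14 p53 targets had an unadjusted p below 0.05 by limma there. They had been chosen on the same arrays, so this is no separate support.

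**Figure D2:**
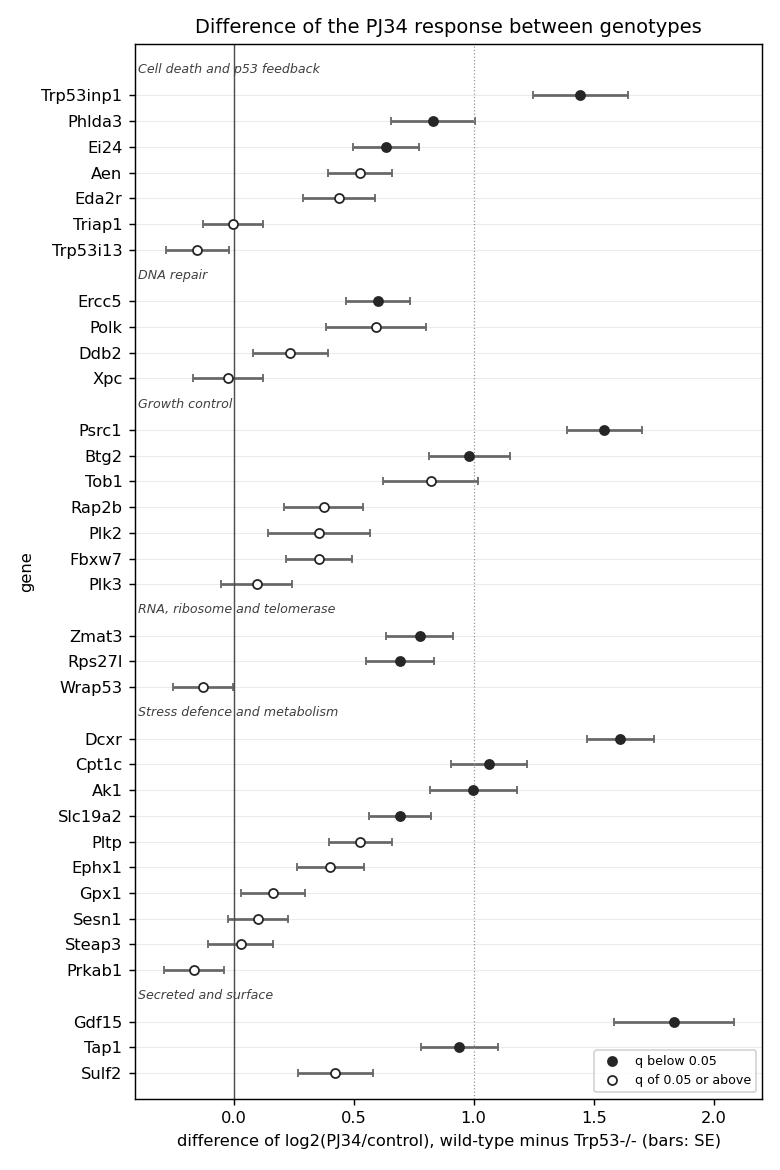
Difference of the log2 ratio of PJ34 over control between wild-type and Trp53-/- NSPCs (x axis) for the same 34 genes, with bars of 1 standard error from the fit. Filled points are the 14 genes with a q below 0.05, all to the right of 0, and the dotted line marks a 2-fold difference, which Gdf15, Dcxr, Psrc1, Trp53inp1 and Cpt1c exceeded. The points of Gdf15 and Tap1 rest on Trp53-/- signals not well above background.

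Among the genes of cell death and p53 feedback, 5 of 7 rose in wild-type NSPCs, 1 fell, and none was called in Trp53-/- NSPCs. Trp53inp1 encodes a nuclear protein that promotes p53 phosphorylation, autophagy and cell death, and its probe lies at chr4:11101174-11101233 of mm9. Its log2 ratios were 2.04 and 1.37 on the wild-type arrays and 0.16 and 0.37 on the Trp53-/- arrays. Every array was above 0, but the wild-type values lay apart from the others, and the difference was 1.45 ± 0.20 (SE; q = 0.00627). Phlda3, a protein with a pleckstrin homology domain that opposes Akt at the membrane, gave 0.95 and 0.41 in wild-type and −0.23 and −0.06 in Trp53-/- NSPCs. The signs were opposite, and the difference of 0.83 ± 0.18 passed the test at q = 0.0399, although not after the omission of wild-type replicate 1 or of either Trp53-/- array.

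Ei24, an endoplasmic reticulum protein of autophagy with a decamer next to its start, rose 1.71-fold in wild-type NSPCs and showed a smaller log2 ratio of 0.14 in Trp53-/- NSPCs, which was not called. The call of its difference was lost with either Trp53-/- array or wild-type replicate 1 left out. Aen, an exonuclease that cuts DNA in apoptosis and whose decamer lies just past its start, rose only 1.28-fold in the wild type, with log2 ratios of 0.44 and 0.27. Its values in Trp53-/- NSPCs were −0.11 and −0.23, and the difference of 0.53 ± 0.13 missed the threshold (q = 0.0683). Eda2r, a receptor for ectodysplasin A2 of the TNF receptor family, rose 1.42-fold in wild-type NSPCs. Its probe was not well above background in either channel of the Trp53-/- arrays. Triap1, an inhibitor of apoptosis, had log2 ratios between −0.17 and −0.07 on all 4 arrays, and no call. Trp53i13 was the only gene of the group that fell in the wild type, by 0.35 on the log2 scale (q = 0.0137), and its Trp53-/- values were both −0.20.

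Of the 4 DNA repair genes, 3 rose in wild-type NSPCs and 1 differed between the genotypes. Ercc5, the endonuclease XPG that cuts on the 3′ side of a lesion in nucleotide excision repair, gave 0.83 and 0.61 in the wild type and 0.10 and 0.14 in Trp53-/- NSPCs. The difference of 0.60 ± 0.13 was called at q = 0.0446, but not with either Trp53-/- array or wild-type replicate 1 left out. Polk, a translesion DNA polymerase, rose 1.56-fold, but the wild-type arrays were far apart at 1.00 and 0.29. Its control channel was not well above background in Trp53-/- NSPCs, and the difference was not called. Ddb2, which recognises ultraviolet lesions, had positive log2 ratios on all 4 arrays, from 0.11 to 0.64, and the genotypes overlapped. Xpc, the damage sensor of global excision repair, overlapped likewise, with a difference of −0.02 ± 0.15. It was called higher in Trp53-/- NSPCs (1.21-fold, q = 0.0491) and missed the threshold in wild-type NSPCs (q = 0.0631).

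Of the 7 growth control genes, 4 rose in wild-type NSPCs and 2 differed between the genotypes. Psrc1, a microtubule-binding protein of the mitotic spindle (probe at chr3:108190744-108190803 of mm9), gave 0.84 and 0.69 in wild-type NSPCs and −0.57 and −0.98 in Trp53-/- NSPCs. It was the only one of the 34 genes that rose in the wild type (q = 0.000727) and fell without p53 (q = 0.00117), and the difference was 1.54 ± 0.16 (q = 0.00143). The antiproliferative genes Btg2 and Tob1 belong to the same protein family. Btg2 showed log2 ratios of 0.86 and 0.51 in the wild type and of −0.49 and −0.11 without p53, a difference of 0.98 ± 0.17 (q = 0.0171). Tob1 showed 1.09 and 0.42 against −0.17 and 0.04, and its difference of 0.82 ± 0.20 missed the threshold at q = 0.0613. The SD of the wild-type arrays was 0.47 for Tob1 and 0.25 for Btg2.

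Plk2, a polo-like kinase of centriole duplication, was the exception to the pattern: it rose in both genotypes. Its log2 ratios were 1.02 and 0.97 in wild-type and 1.03 and 0.25 in Trp53-/- NSPCs. The groups overlapped, the difference was 0.35 ± 0.21 (q = 0.36), and the call in Trp53-/- NSPCs was lost without replicate 1 of that genotype. Plk3, its relative, was below 0 on all 4 arrays, from −0.40 to −0.04, with no call. Fbxw7, the substrate receptor of a ubiquitin ligase for cyclin E, and Rap2b, a GTPase of the Ras family with a decamer past its start, were above 0 on both wild-type arrays and below 0 on both Trp53-/- arrays. Neither was called in any of the comparisons.

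Of the genes for RNA and ribosome, Zmat3, a zinc finger protein that binds RNA, gave 0.83 and 0.56 in wild-type and −0.13 and −0.03 in Trp53-/- NSPCs. The difference was 0.78 ± 0.14 (q = 0.0208) and was not called with either Trp53-/- array left out. Rps27l, a paralogue of ribosomal protein S27 and the only one of these genes with 2 decamers, gave 0.48 and 0.73 against 0.01 and −0.18. The difference of 0.69 ± 0.14 was called (q = 0.0356), though not without replicate 2 of either genotype. The Rps27l probe spans an exon junction, and whether it also takes up RNA of the closely related Rps27 was not tested. Wrap53, the telomerase Cajal body protein that is read from the opposite strand next to Trp53, fell by 0.25 on the log2 scale in wild-type NSPCs (q = 0.0399). The 4 arrays all lay between −0.28 and −0.10 for this gene, and the difference between genotypes was not called.

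The group of stress defence and metabolism held 6 genes that rose, 2 that fell and 2 without a call in wild-type NSPCs. Dcxr, the dicarbonyl and L-xylulose reductase (probe within chr11:120587276-120587416 of mm9), had the smallest q of all 34 genes: its log2 ratios were 1.65 and 1.45 in the wild type and −0.16 and 0.05 without p53. The replicates lay close together in both genotypes, with an SD of 0.14 and 0.15, and the difference was 1.61 ± 0.14 (q = 0.000532). Cpt1c, the brain form of carnitine palmitoyltransferase (probe at chr7:52215426-52215485 of mm9), gave 1.01 and 0.90 against −0.33 and 0.10, with a difference of 1.06 ± 0.16 (q = 0.00957). Ak1, the cytosolic adenylate kinase, gave 1.02 and 0.63 against −0.40 and 0.06. Its difference, 1.00 ± 0.18 (q = 0.0217), lay just inside the 2-fold limit and was not called without Trp53-/- replicate 1.

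Slc19a2, a thiamine transporter, rose on both wild-type arrays, by 0.93 and 0.77, and the Trp53-/- arrays lay at 0.13 and 0.18. The difference of 0.69 ± 0.13 was called (q = 0.0238), a call that was lost with either Trp53-/- array left out. Ephx1, the microsomal epoxide hydrolase, gave 0.63 and 0.34 against 0.09 and 0.08, and Pltp, the phospholipid transfer protein, 0.52 and 0.43 against −0.13 and 0.03. Both rose in the wild type, and neither difference was called (q = 0.157 and q = 0.0651). Gpx1, a glutathione peroxidase, was −0.37 on both wild-type arrays and −0.65 and −0.42 on the Trp53-/- arrays, and was called lower in both genotypes. Sesn1, a sestrin that restrains mTORC1 and has a decamer upstream of its start, was also lower in both, with log2 ratios between −0.40 and −0.27. Steap3, a metalloreductase, and Prkab1, a subunit of AMP-activated kinase, stayed between −0.15 and 0.21 and were not called.

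All 3 secreted and surface genes that could be measured rose in wild-type NSPCs, and none was called without p53. Gdf15, a stress cytokine of the TGF-beta family (probe at chr8:73153293-73153352 of mm9), gave log2 ratios of 2.12 and 1.16 in the wild type, the widest gap between replicates in that genotype (SD 0.68). The probe was not well above background in either channel of the Trp53-/- arrays, so that neither a fold nor a bound on it is given there. The fit called the difference at q = 0.00607 against that signal. Tap1, which carries peptides to class I molecules, gave 1.09 and 0.62 in the wild type, and its probe too was not well above background in either channel of the Trp53-/- arrays. The fit called its difference at q = 0.0171, and not without Trp53-/- replicate 2. Sulf2, a sulfatase of extracellular heparan sulfate, rose 1.42-fold and its difference was not called.

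**Figure D3:**
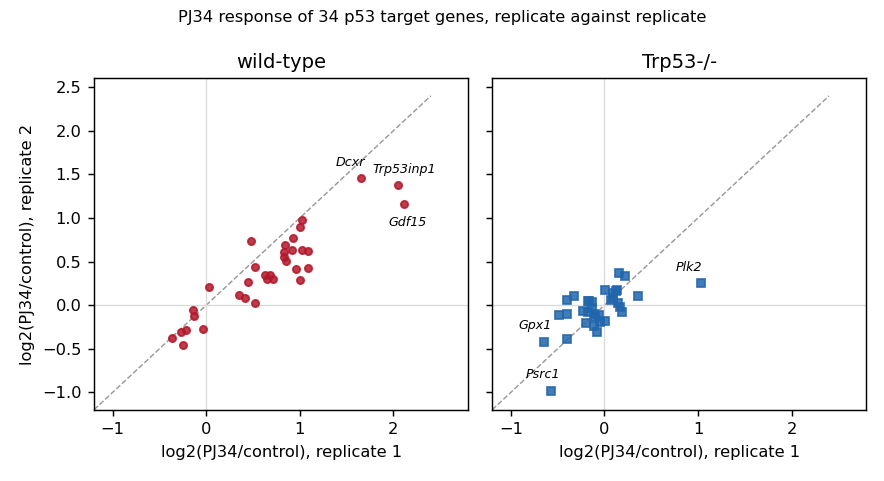
Log2 ratio of PJ34 over control on replicate 1 (x axis) against replicate 2 (y axis) for the 34 p53 targets, wild-type on the left and Trp53-/- on the right, with the dashed line marking equal values. In the wild-type panel 30 of the 34 points lie below the line. In the Trp53-/- panel most points gather around 0, with Plk2, Gpx1, Psrc1 and Sesn1 among those farther out.

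The replicates of the wild type differed in a regular way. The ratio was larger on replicate 1 than on replicate 2 for 30 of the 34 genes, with a median gap of 0.24 on the log2 scale, whereas the median gap over all genes was −0.0047. The median ratio of the 34 genes was 0.70 on replicate 1 and 0.38 on replicate 2. Leaving out replicate 1 kept 18 of the 27 wild-type calls, and leaving out replicate 2 kept 23. The calls lost without replicate 1 were Aen, Ddb2, Eda2r, Ephx1, Polk and Sulf2 among the higher genes and Gpx1, Sesn1 and Wrap53 among the lower genes, and without replicate 2 all 4 lower genes were lost.

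In untreated NSPCs 12 of the 34 genes had a higher control-channel level in the wild type at a q below 0.05, although none was called with either Trp53-/- array left out or with median centring of the control channel. These 12 stand against 3.61% of all genes, and none of the 34 had a lower level by limma, against 3.66%. At an unadjusted p below 0.05 by limma there were 18 higher and 2 lower, while 4702 of all 20227 genes passed in either direction. Past 2-fold were 10 genes, all higher in the wild type, against 1.93% of all genes higher and 1.85% lower. Gdf15 and Eda2r are among the 12, and Gdf15 among the 10. Both passed the filter through the wild-type arrays alone, and the size of their difference is not a measured one. When both channels had to be well above background on all 4 arrays, 10 of 30 genes were called higher and 9 exceeded 2-fold. Of all 15423 genes that passed, 602 were then called higher, 366 of them over 2-fold. The median difference of the untreated level was 0.49 on the log2 scale and 0.0037 over all genes, and the levels of the genotypes did not overlap, with wild-type higher, for 22 genes and, with wild-type lower, for 5 (28.8% and 27% of all genes). Gdf15, Eda2r and Tap1, which passed the filter through the wild-type arrays alone, are among the 22. In bulk RNA, fewer expressing cells and less RNA per cell cannot be told apart.

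The untreated log2 intensity of Dcxr was 9.64 and 10.67 in wild-type and 6.82 and 7.06 in Trp53-/- NSPCs, 9.27-fold apart (q = 0.0114). Phlda3 gave 12.87 and 13.27 against 10.09 and 10.30, a 7.33-fold difference (q = 0.0078). For Trp53inp1 the levels were 10.21 on both wild-type arrays and 7.52 and 7.69 on the others, 6.10-fold apart (q = 0.0078). In each of these the lowest wild-type level was above the highest Trp53-/- level by more than the spread within a genotype. Ak1 stood at 12.99 and 13.24 against 10.82 and 10.91 (4.76-fold, q = 0.0078), and Psrc1 at 9.92 and 10.50 against 8.16 and 8.18 (4.11-fold, q = 0.0135). Gdf15 stood at 8.19 and 8.55 in the wild type and was not well above background in the untreated Trp53-/- channels, so that it was at least 3.67-fold higher. In this bound the lowest signal among probes well above background stood in for a dimmer one.

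The remaining genes past 2-fold were closer. Slc19a2 gave 9.81 and 9.64 against 8.20 and 8.40 (2.68-fold), Zmat3 11.55 and 11.05 against 10.12 and 9.88 (2.47-fold), and Ephx1 14.02 and 14.01 against 12.78 and 12.90 (2.25-fold). Cpt1c gave 9.25 and 10.19 against 8.42 and 8.44, 2.45-fold apart, and with the widely spaced wild-type arrays it only just passed (q = 0.0482). Aen was 1.81-fold higher (q = 0.0296). Eda2r was called as well, but with 1 of 2 wild-type controls and no Trp53-/- control well above background it was at least 1.38-fold higher. Eda2r lies on the X chromosome.

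Several genes with a clear response to PJ34 had untreated levels that were not called different. Btg2 stood at 8.12 ± 0.16 (SD, n = 2 arrays) in untreated wild-type and at 7.80 and 7.89 in untreated Trp53-/- NSPCs. The difference of 0.27 ± 0.17 (SE) was not called (q = 0.229). Tob1 stood at 8.28 and 9.10 against 8.42 and 8.48, so that the groups overlapped. Tap1 stood at 6.44 and 6.91 in wild-type controls, only 1 of which was well above background, and was at least 1.17-fold higher, without a call. In the order of their difference in response to PJ34, 12 of the 14 genes called there had untreated differences of 3.21, 2.04, 2.61, 1.29, 2.25, 0.27, 2.87, 1.30, 1.42, 0.40, 0.81 and 0.50 on the log2 scale, from Dcxr, Psrc1, Trp53inp1, Cpt1c, Ak1, Btg2, Phlda3, Zmat3, Slc19a2, Rps27l and Ei24 to Ercc5, while Gdf15 and Tap1 have the bounds given above. Both comparisons use the same control channels, so they are set side by side only.

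**Figure D4:**
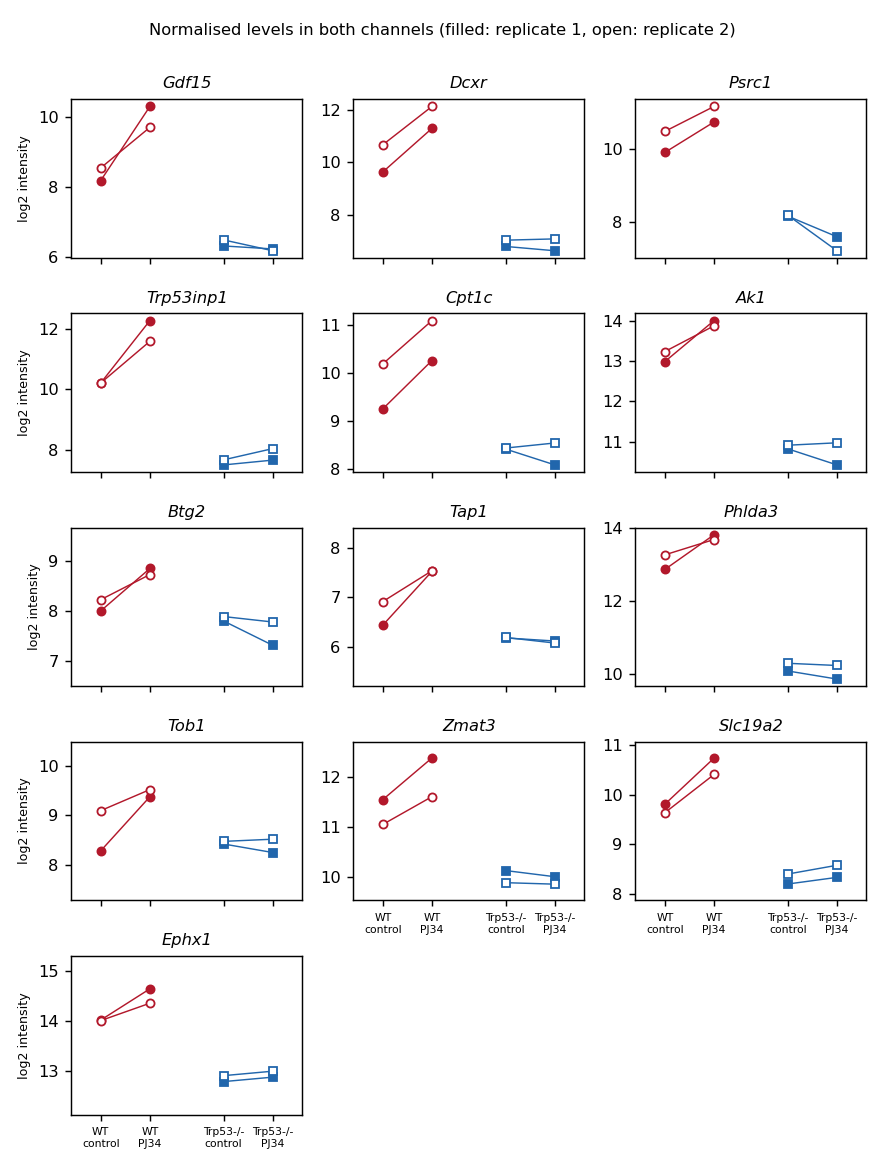
Normalised log2 intensity (y axis, a different range in each panel) of the control and PJ34 channels in wild-type NSPCs (red circles) and Trp53-/- NSPCs (blue squares), with a line joining the channels of an array, for the 10 genes with the largest difference in response and 3 others over 2-fold apart when untreated. The red lines rise from control to PJ34 in every panel; in Btg2, Tap1 and Tob1 the control points of the genotypes lie close together, and for Gdf15 and Tap1 the blue points were not well above background.

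The untreated comparison rests on a weaker design than the ratios, because no array held both genotypes. No slide carried more than 1 of the 4 arrays, and the genotypes were scanned in different years, so that genotype cannot be told apart from slide or scan. With either Trp53-/- array left out, the median untreated difference of the 34 genes was 0.50 on the log2 scale. Over all genes it was −0.0041 without replicate 1 and 0.010 without replicate 2 of that genotype. With median centring of the control channel, limma called none of the 20227 genes, the 12 among them. Of the 12, 11 had an unadjusted p below 0.05 there. The 12 had been chosen on the same control channels, so this is no separate support. The untreated channels also differed in markers of other cells. The summed intensity of the endothelial markers was 8100 to 8520 in wild-type and 3830 to 4160 in Trp53-/- controls, with Cdh5, Tek and Cldn5 not well above background, and 3 of 6 markers measured. Of these 3, Kdr was called higher in the wild type (log2 difference 1.34) and Flt1 lower (−2.63), and Pecam1 was not called (0.13). The microglial sum was 5970 to 7090 against 3720 to 4340, with 3 of 7 markers measured. The astrocyte sum was 32200 to 34600 against 37800 to 40500, and the oligodendrocyte sum 41600 to 43600 against 45700 to 52500, with all 8 and all 9 markers measured. Eif2s3y and Ddx3y were well above background in both wild-type controls and in neither Trp53-/- control. The part of these differences in the levels of the p53 targets was not tested.

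The grouping of the 34 genes by their calls gave a small number of patterns. Ak1, Cpt1c, Dcxr, Gdf15, Phlda3, Slc19a2, Trp53inp1 and Zmat3 rose with PJ34 in wild-type NSPCs, responded more than in Trp53-/- NSPCs and were also higher in the untreated wild type, and Psrc1 joined these while falling without p53. Btg2, Ei24, Ercc5, Rps27l and Tap1 shared the first 2 calls but not the untreated one. Aen, Eda2r and Ephx1 rose in wild-type NSPCs and were higher there when untreated, with no call for the difference. Ddb2, Pltp, Polk, Sulf2 and Tob1 were called in the wild type alone, which does not show that the genotypes differed. Fbxw7, Plk3, Prkab1, Rap2b, Steap3 and Triap1 had no call in any comparison. The 7 genes with a decamer were spread over these patterns: Ei24 and Rps27l had a called difference, Aen and Polk rose in the wild type, Sesn1 and Wrap53 fell, and Rap2b had no call.

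The other genes of the p53 pathway, a list of 33 of which 32 were measured, include the cell cycle, death receptor and Bcl2 family targets. In wild-type NSPCs 20 of the 32 rose and 1 fell, against 13.6% and 11.3% of all genes, with a median log2 ratio of 0.40. Over 2-fold were 9, against 0.287% of all genes: Perp, Cdkn1a, Fas, Bbc3, Ccng1, Tnfrsf10b, Pmaip1, Mdm2 and Sesn2. The same 9 had a larger response in wild-type than in Trp53-/- NSPCs past 2-fold, against 0.435% of all genes. Their differences ran from 2.29 on the log2 scale for Perp and 2.14 for Cdkn1a to 1.01 for Sesn2. The differences of Dcxr, Psrc1 and Trp53inp1 lay within this range. In Trp53-/- NSPCs 2 of the 32 pathway genes rose and 6 fell, against 12.8% and 10.5% of all genes, with none over 2-fold by limma. Untreated levels were higher in the wild type for 10 genes, all past 2-fold (Ccng1, Cdkn1a, Tnfrsf10b, Bbc3, Fas, Gtse1, Bax, Pmaip1, Pidd1 and Sesn2), and lower for Cd82. Of all genes, 3.61% were called higher and 3.66% lower. With median centring of the control channel none of the 20227 genes was called, these included.

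A second probe was measured for 9 of the 34 genes. It gave the same direction in wild-type NSPCs for 8 of them, among them Trp53inp1, whose second probe gave 1.37 and 0.79 in the wild type and a difference of 0.90 in place of 1.45, under 2-fold. The second probe of Cpt1c showed a difference of 1.41 and was called lower in Trp53-/- NSPCs, with −0.56 and −0.17. For Ercc5 and Polk the second, dimmer probe gave wild-type means of 0.26 on the log2 scale for each, and neither was called. Fbxw7 was the gene whose probes disagreed in direction: the second probe gave a difference of −0.37 where the first gave 0.35, and neither was called.

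All PJ34 ratios are relative to the bulk of the transcripts, because loess sets the centre of each array to 0. Where loess was replaced by median centring, all genes tested had a median ratio of 0.46 in wild-type and 0.63 in Trp53-/- NSPCs, and called genes were higher in 99.3% and 99.4% of cases in place of 54.7% and 54.8%. Under that scaling 30 of the 34 genes were called higher in the wild type and 25 in Trp53-/- NSPCs. Of all 20227 genes, 11950 were called higher in the wild type and 13667 in Trp53-/- NSPCs. Gpx1, Sesn1, Trp53i13 and Wrap53 turned from lower to higher. Relative to the median of all genes, the 34 genes then stood at 0.69 in wild-type and 0.034 in Trp53-/- NSPCs. The difference between genotypes was called for 6 of them, all larger in the wild type. Of all 20227 genes, 82 were called larger there and 32 smaller.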

How the data were processed

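The authors labelled RNA with the Low Input Quick Amp kit and hybridised it to Agilent SurePrint G3 mouse arrays, and the deposited files hold spot intensities and log10 ratios from Agilent Feature Extraction 10.7.3.1 (version from the submitters' processing notes) with probe positions on mm9. Cy5 over Cy3 was read as PJ34 over control. Intensities were background corrected with normexp (offset 50) and normalised by loess within each array, leaving out control spots and outlier flags, in limma 3.58.1 under R 4.3.3. For untreated levels the control channel was taken after Aquantile scaling between arrays. Replicate spots were averaged, and a probe stayed in if it was well above background in a channel on both arrays of a genotype (27042 of 55681 probes), and a gene was read from its brightest kept probe. Linear models with a mean per genotype were fitted over 20227 genes with all 4 arrays (lmFit, eBayes, 10.26 total degrees of freedom), and Storey's q was computed over all genes. Calls required q below 0.05, and for the stricter count also p below 0.05 and over 2-fold. The genes and lists were chosen with earlier results of these data known. All 36 genes are named by role; those over 2-fold in any comparison and the 10 with the largest difference are given on every array, and other p53 pathway genes are named where over 2-fold. A table of processed values with 4 numbered columns was not used, since its columns could not be matched to samples. Gene symbols are those of the array design, and 47.2% of probes were found by accession in the RefSeq table. On simulated data the fit recovered 174 of 200 changed genes with 3 false calls in the wild-type comparison. It recovered 150 with 1 in the difference and 81 with 2 in the untreated comparison, out of 20227 genes each. These counts hold for the sizes of change put in there, and recovery at other sizes was not tested. Alternatives covered background correction, normalization, filters, the fit, the adjustment, the choice of probe and the omission of single arrays.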

Additional observations from a re-analysis of the deposited data

Results flagged for a closer look

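The responses to PJ34 that differed between the genotypes by the test of the difference itself, at a q below 0.05 in limma, were those of 14 genes, each larger in wild-type than in Trp53-/- NSPCs on the log2 scale: by 1.83 for Gdf15, 1.61 for Dcxr, 1.54 for Psrc1, 1.45 for Trp53inp1, 1.06 for Cpt1c, 1.00 for Ak1, 0.98 for Btg2, 0.94 for Tap1, 0.83 for Phlda3, 0.78 for Zmat3, 0.69 for Slc19a2, 0.69 for Rps27l, 0.64 for Ei24 and 0.60 for Ercc5. The values of Gdf15 and Tap1 rest on probes that were not well above background in either channel of the Trp53-/- arrays, so that their size is not a measured one. The wild-type ratios of each of the 14 lay above its Trp53-/- ratios, as for 21.3% of all genes. Since the 14 were chosen by this difference on the same arrays, that order is no separate support.

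Outside the genes compared, the Y-linked transcripts Eif2s3y and Ddx3y gave log2 ratios of 4.22 and 3.12 on Trp53-/- replicate 2, whereas both were not well above background in the control channel of that array. Xist, which is transcribed from the inactive X chromosome, gave −1.39 there.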

How the results depend on the processing

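Each gene called in the PJ34 comparison of a genotype, in the difference or in untreated levels was refitted under every alternative that kept it, and the filter on both channels of all 4 arrays dropped Eda2r, Gdf15, Polk and Tap1. The direction and side of the threshold were the same in 424 of 455 refits for wild-type NSPCs, 68 of 85 for Trp53-/- NSPCs, 161 of 222 for the difference and 135 of 178 for untreated levels. Reversals came with median centring in place of loess: Gpx1 0.47 and Sesn1 0.36 in Trp53-/- NSPCs, and Gpx1 0.37, Sesn1 0.26, Trp53i13 0.28 and Wrap53 0.39 in wild-type NSPCs. That centring moves the median of all genes. Under it the wild type had 0 lower and 19 genes over 2-fold, and Trp53-/- NSPCs 25 higher, 0 lower and 3 over 2-fold. The difference had 6 higher. Of all 20227 genes, 13667 were then called higher in Trp53-/- NSPCs. Over 2-fold upwards were 1179 in the wild type and 3404 in Trp53-/- NSPCs. With offset 16 the counts were 5 over 2-fold in the wild type, 1 higher in Trp53-/- NSPCs, and 2 for the difference, both over 2-fold. From the log ratios of the scanner's own software they were 1 lower and 7 over 2-fold in the wild type, 0 higher and 1 over 2-fold in Trp53-/- NSPCs, and 0 for the difference and 0 over 2-fold. Without background correction 8 differences exceeded 2-fold and 1 gene was higher in Trp53-/- NSPCs, as was 1 with scaling between arrays, no filter or Benjamini-Hochberg adjustment. Fitted alone, Trp53-/- NSPCs had 5 lower. Median centring of the control channel left 0 untreated calls and 0 over 2-fold, among these genes and among all 20227 alike. The causes of these shifts were not tested.

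Leaving out 1 array at a time, where a lone array is assumed to vary like the other genotype, gave 17 to 25 higher, 0 to 4 lower and 3 to 9 over 2-fold in the wild type, 0 to 3, 2 to 5 and 0 to 1 in Trp53-/- NSPCs, 7 to 19 higher and 4 to 10 over 2-fold for the difference, and 0 to 25 higher, 0 to 3 lower and 0 to 12 over 2-fold for untreated levels. For untreated levels the count over all genes swung widely too in these fits, so that range is not particular to the p53 targets. The median untreated difference of the p53 targets stayed between 0.48 and 0.61 on the log2 scale, against −0.0041 to 0.015 over all genes. Same-numbered arrays of the genotypes deviated with a correlation of −0.178 in ratios and 0.0809 in levels, so the numbers do not pair them. With the replicate number as a block, 23 were higher and 3 lower in the wild type, 1 higher and 3 lower in Trp53-/- NSPCs, 16 higher for the difference and 14 higher in untreated levels. Crossing the pairs, chosen after seeing the data, gave 26 and 4, 3 and 5, and 17. Signal near background limits Gdf15, Tap1, Eda2r and Polk in Trp53-/- NSPCs and Lif and Thbs1 throughout.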
